A study of Mus musculus with 18 samples.

Results

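The 10 transcripts described here are encoded in the mitochondrial DNA of the mouse: mt-Nd1, mt-Nd2, mt-Nd3 and mt-Nd4, which encode subunits of complex I (NADH dehydrogenase), mt-Cytb, the cytochrome b of complex III, mt-Co1, mt-Co2 and mt-Co3, the core of complex IV (cytochrome c oxidase), and mt-Atp6 and mt-Atp8, which belong to the ATP synthase. They were chosen by name from a list, and all 10 had a row in the short-read table, in which 28 of 17757 genes are mitochondrially encoded (13 protein-coding genes, 13 transfer RNAs and 2 ribosomal RNAs). Their levels were followed across the bone marrow of 6 female C57BL/6 mice, of which 3 were aged (72 weeks, mice 2, 4 and 6) and 3 were young (8 weeks, mice 1, 3 and 5). The labels name no transgene and no treatment, and there was 1 short-read library per mouse. From each mouse the lineage-negative, cKit-positive (LK) fraction, which contains haematopoietic stem cells and their progenitors, was sorted, and the full-length cDNA of its cells was read both as short 3′ tags (8436 cells) and as long reads, of which counts per run, not per cell, are used here.

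Mitochondrial DNA is transcribed from both strands as long precursors, and the messengers are released where the transfer RNAs between them are cut out and are then given a poly(A) tail. Each messenger encodes a subunit deep in the membrane part of a respiratory complex, and the nucleus supplies all other subunits and the factors that copy, transcribe and maintain the genome. Blood stem cells are known for low respiration and a dependence on glycolysis, whereas red cell precursors are rich in mitochondria until late in their maturation. In single-cell data the share of mitochondrial transcripts also serves as a mark of damaged cells, because cytoplasmic RNA leaks out before mitochondrial RNA does. The authors removed cells with more than 5% mitochondrial counts or with fewer than 1000 genes, so all values below describe the cells on the near side of that limit. The highest mitochondrial share left in the data was 4.995% of a cell's molecules.

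All 10 members lie on the same strand of mitochondrial DNA (GRCm38), from mt-Nd1 at chrM:2751-3707 to mt-Cytb at chrM:14145-15288, each as a single exon with hardly any untranslated sequence. Their gene models run from 204 bases (mt-Atp8) to 1545 bases (mt-Co1). The reading frame of mt-Atp8 (chrM:7766-7969) runs into that of mt-Atp6 (chrM:7927-8607), and both are read from one messenger. The last 100 bases of mt-Atp8 are printed to show this, with the 43 bases shared with mt-Atp6 (chrM:7927-7969) in capitals.
mt-Atp8, last bases: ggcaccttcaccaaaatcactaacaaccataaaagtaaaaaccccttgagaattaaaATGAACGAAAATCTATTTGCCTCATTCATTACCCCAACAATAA

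Because the short reads are 3′ tags, the end of each messenger is the stretch nearest to what was sequenced. The ends of the 3 most abundant members are printed for this reason, 60 bases each on the plus strand, with the stop codon, or the part of it that the DNA encodes, in capitals. mt-Nd1 ends in a complete TAG (chrM:3648-3707), whereas mt-Cytb (chrM:15229-15288) and mt-Nd4 (chrM:11485-11544) end in a single T, as does mt-Co3 (chrM:9331-9390), which the poly(A) tail completes to a stop codon.
mt-Nd1, last bases: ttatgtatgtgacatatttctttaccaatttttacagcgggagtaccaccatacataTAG
mt-Cytb, last bases: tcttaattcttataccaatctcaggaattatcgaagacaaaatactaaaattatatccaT
mt-Nd4, last bases: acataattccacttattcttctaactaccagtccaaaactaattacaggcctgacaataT
mt-Co3, last bases: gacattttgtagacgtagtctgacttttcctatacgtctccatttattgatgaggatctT

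Parts of the mitochondrial genome have also been copied into nuclear chromosomes, and a read that matches both places equally well cannot be assigned to either. A block of such copies lies on the minus strand of chromosome 1 (chr1:24611535-24616197, GRCm38) and holds near-identical copies of 6 members, annotated mostly as unprocessed pseudogenes. The copy of mt-Atp6, Gm10925, matched it over 678 bases with 0 mismatches, that of mt-Co2, Gm28661, over 681 bases with 0 mismatches, and that of mt-Co3, Gm28437, over 783 bases with 0 mismatches. The copies end just before the stop codons, as the last 90 bases of mt-Atp6 (chrM:8518-8607) and mt-Co2 (chrM:7607-7696) show beside the matching bases of Gm10925 (chr1:24613974-24614060) and Gm28661 (chr1:24614885-24614971), with the bases past the end of the copy in capitals.
mt-Atp6, last bases: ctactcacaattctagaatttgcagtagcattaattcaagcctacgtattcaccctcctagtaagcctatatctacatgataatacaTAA
Gm10925, matching bases: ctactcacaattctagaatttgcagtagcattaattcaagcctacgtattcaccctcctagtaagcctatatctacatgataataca
mt-Co2, last bases: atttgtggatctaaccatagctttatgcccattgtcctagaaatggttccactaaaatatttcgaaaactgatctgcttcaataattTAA
Gm28661, matching bases: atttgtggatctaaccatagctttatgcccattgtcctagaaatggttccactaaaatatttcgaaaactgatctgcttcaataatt

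The copy of mt-Nd3, Gm28438, differed at 1 of 345 bases, T3C counted from the first base of mt-Nd3. That of mt-Co1, Gm29216, covers its last 492 bases and differed by T1056A, C1057T, A1059G, A1060G, C1062A and A1066T, so that the last 479 bases were identical. Both differences are shown with the differing bases in capitals, for chrM:9459-9496 beside chr1:24613082-24613119 and for chrM:6381-6418 beside chr1:24616160-24616197.
mt-Nd3, around the mismatch: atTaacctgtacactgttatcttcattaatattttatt
Gm28438, around the mismatch: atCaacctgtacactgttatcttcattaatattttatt
mt-Co1, around the mismatch: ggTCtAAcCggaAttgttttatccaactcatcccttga
Gm29216, around the mismatch: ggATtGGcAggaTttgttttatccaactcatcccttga

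mt-Nd4 is the exception among the copied members, since its copy Gm28439 holds only its first 876 bases and the 502 bases at its 3′ end are not in it. The junction is shown from chrM:10993-11092, with the bases past the end of the copy in capitals.
mt-Nd4, end of the copied part: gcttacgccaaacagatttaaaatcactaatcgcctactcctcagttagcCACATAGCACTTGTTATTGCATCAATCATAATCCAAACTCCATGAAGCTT

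Between Gm10925 and Gm28661 lie 233 bases, as many as between the matching parts of mt-Atp6 and mt-Co2 in mitochondrial DNA, which is where mt-Atp8 lies. The sequence of this nuclear interval was not read. Among the annotated transcripts, the most similar to mt-Atp8 was Gm28925 at 81.4% over 167 bases, to mt-Cytb Gm11410 at 92.9% over 1142 bases and to mt-Nd2 Gm13339 at 96.7% over 510 bases, and no transcript similar to mt-Nd1 was found. Beside the copies above, mt-Co1 matched Gm13340 at 97.6% over 1545 bases and mt-Co2 matched Gm13341 at 95.9% over 684 bases. The copies in the block on chromosome 1 were counted at low levels. Gm10925 averaged 5.26 ± 1.59 CPM (UMIs scaled to the total of the library, SD, n = 6 mice), Gm28437 4.06 ± 1.96 CPM, Gm28661 3.04 ± 1.43 CPM and Gm29216 2.47 ± 0.863 CPM. How reads that matched both a member and its copy were treated is not given in the sources used here, and its part in the levels below was not tested.

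The short-read libraries held 3628043 to 17585424 molecules (unique molecular identifiers, UMIs) in 681 to 1919 cells per mouse, with a median of 4172 to 8498 UMIs per cell. The 10 members together made up 560180 UMIs, and 8 cells of 8436 had none. They accounted for 92.3% to 96.9% of all mitochondrially encoded UMIs of a mouse. A barcode was found in more than 1 mouse for 42 barcodes, which were kept as separate cells. Lineage-defining markers were present in the classes named below, such as Procr in HSC-like cells, Klf1 in erythroid-like cells and Pf4 in megakaryocyte-like cells, and the sort had also let through 115 B-cell-like, 81 macrophage/dendritic cell-like and 15 T/NK cell-like cells.

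The members differed widely in level. mt-Cytb was the most abundant at 3648 ± 1216 CPM (SD, n = 6 mice), followed by mt-Nd1 at 3383 ± 1117 CPM and mt-Nd4 at 1721 ± 512 CPM. These 3 transcripts held 78.7% to 89.1% of the members' UMIs in each mouse. mt-Nd2 followed at 766 ± 320 CPM, and mt-Atp6, mt-Co1 and mt-Nd3 averaged 291 ± 183, 279 ± 59.6 and 111 ± 55.0 CPM. The lowest were mt-Atp8 at 43.8 ± 17.8 CPM, mt-Co3 at 30.3 ± 19.4 CPM and mt-Co2 at 23.2 ± 14.3 CPM.

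Per kilobase of gene model the order was similar, with mt-Nd1 at 3535 CPM per kb, mt-Cytb at 3188, mt-Nd4 at 1249 and mt-Nd2 at 738 CPM per kb. mt-Atp6 (427 CPM per kb), mt-Nd3 (318), mt-Atp8 (214) and mt-Co1 (181 CPM per kb) lay in the middle, and mt-Co3 (38.6 CPM per kb) and mt-Co2 (33.9 CPM per kb) at the bottom. Per kilobase all 3 subunits of complex IV were below each of the complex I and III members, whereas in CPM mt-Co1 (279) stood above mt-Nd3 (111). The short reads are 3′ tags, so the scaling by length may itself shape the order per kilobase. mt-Atp6, mt-Nd3, mt-Co1, mt-Co3 and mt-Co2, whose 3′ ends are also in the nuclear block, lay between 33.9 and 427 CPM per kb. mt-Nd1, mt-Cytb, mt-Nd4 and mt-Nd2 lay above them, at 738 to 3535 CPM per kb. mt-Atp8, for which no such copy was found, lay within the lower range. The protein-coding genes that are not members, mt-Nd5, mt-Nd6 and mt-Nd4l, had 85.1, 11.7 and 5.34 CPM per kb. No copy of these genes is listed here, yet they too lay below 738 CPM per kb. Whether the copies shape this order was not tested.

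**Figure D1:**
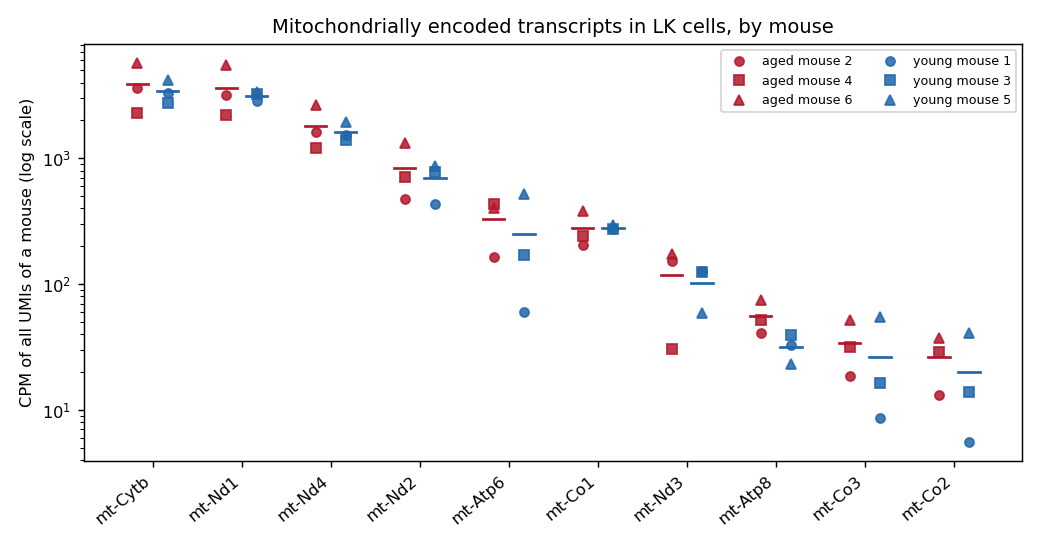
Level of each member in CPM of all UMIs of a mouse (log axis), in the 3 aged mice (red, left) and the 3 young mice (blue, right), with a short line at the mean of each age. The points of the ages overlap for 9 of 10 members, mt-Atp8 being the exception, and mt-Co2, mt-Co3 and mt-Atp6 are spread the most widely. Ages assigned at random to 3 against 3 mice separate for a gene with a probability of 0.1.

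The first question was whether these levels differed between aged and young mice. Summed over the members, the mitochondrial share of UMIs was 0.948%, 0.721% and 1.63% in aged mice 2, 4 and 6, against 0.862%, 0.882% and 1.13% in young mice 1, 3 and 5. The aged mice thus held both the highest and the lowest value. In counts summed over LK cells, as in the long reads, fewer cells of a type and less RNA per cell cannot be told apart. The mean was 1.10% ± 0.473 in aged mice and 0.959% ± 0.151 in young mice (SD, n = 3 each), a difference of 0.141 percentage points (p = 0.8, two-sided exact permutation test over mice, for which 0.1 is the smallest possible p). Without aged mouse 6, whose library was the smallest, the difference was -0.125 percentage points (p = 0.6, exact permutation test).

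Per member, 9 of 10 had a higher mean in aged mice, but none of the 10 was called in the test across all genes, in which 0 of 12302 genes (0%) passed an adjusted p of 0.05 (edgeR's quasi-likelihood test with Benjamini-Hochberg adjustment, 371 genes at an unadjusted p under 0.05, and 8 genes called by DESeq2). The members' log2 fold changes, aged over young, had a median of 0.15 beside 0.00 for all genes. mt-Nd1, a membrane subunit of complex I, measured 3172, 2190 and 5495 CPM in aged mice 2, 4 and 6, against 2850, 3235 and 3355 CPM in young mice 1, 3 and 5. Mouse 6 was the highest of all mice and mouse 4 the lowest, so the ages overlapped (log2 fold change 0.12 ± 0.29 SE, adjusted p = 1.0). mt-Cytb moved in parallel, with 3612, 2285 and 5734 CPM in aged mice, against 3305, 2764 and 4185 CPM in young mice (0.12 ± 0.29 SE). Only mt-Co1, the catalytic subunit of complex IV, had the lower mean in aged mice, and by a small amount (277 ± 93.6 CPM in aged and 281 ± 10.95 CPM in young mice, log2 fold change -0.09 ± 0.21 SE).

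mt-Atp8 was the single member whose ages did not overlap. Its level was 40.8, 51.6 and 74.7 CPM in aged mice 2, 4 and 6, against 33.1, 39.0 and 23.4 CPM in young mice 1, 3 and 5. The gap between aged mouse 2 and young mouse 3 was small beside the spread within each age. When ages are assigned at random to 3 against 3 mice, the ages of a gene separate with a probability of 0.1. The share of all genes that separate was not counted. The fold change of mt-Atp8 was the largest of the 10 (0.71 ± 0.27 SE on the log2 scale), with an unadjusted p of 0.0323 and an adjusted p of 1.0 in edgeR's quasi-likelihood test, so it was not called. It rests on 2565 UMIs in all, the fewest but those of mt-Co2 and mt-Co3. mt-Atp6, read from the same messenger, measured 163, 434 and 399 CPM in aged mice 2, 4 and 6, against 60.3, 169.5 and 517 CPM in young mice 1, 3 and 5, and its ages overlapped (0.40 ± 0.68 SE). The 3′ part of that messenger is mt-Atp6, and what the 3′ tags counted to mt-Atp8 stand for was not tested.

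The members did not vary alike among mice. The highest mouse exceeded the lowest by 8.57-fold for mt-Atp6, 7.27-fold for mt-Co2 and 6.39-fold for mt-Co3, but by 2.51-fold for mt-Nd1 and mt-Cytb, 2.20-fold for mt-Nd4 and 1.87-fold for mt-Co1. mt-Atp6, mt-Co2 and mt-Co3, which lie close to each other on mitochondrial DNA, went together. mt-Co2 stood at 0.0667 to 0.0925 UMIs per mt-Atp6 UMI and mt-Co3 at 0.0725 to 0.142. mt-Atp6 stood at 0.198, 0.154 and 0.0726 UMIs per mt-Nd1 UMI in mice 4, 5 and 6 and at 0.0524, 0.0515 and 0.0211 in mice 3, 2 and 1. The ratio of mt-Atp6 to mt-Nd1 thus ranged over 9.37-fold among mice and the order of the mice crossed the ages. mt-Atp8 lies between mt-Co2 and mt-Atp6 but did not go with them, at 1.82 to 22.1 mt-Atp6 UMIs per mt-Atp8 UMI. mt-Nd3 followed another order, with its lowest levels, 30.6 and 59.2 CPM, in mice 4 and 5, where mt-Atp6 was highest, and 124 to 174 CPM in the other 4 mice. The highest mouse exceeded the lowest by 1.94-fold for Gm10925, 3.16-fold for Gm28661 and 3.44-fold for Gm28437, the copies of mt-Atp6, mt-Co2 and mt-Co3. Gm28438, the copy of mt-Nd3, had 11 UMIs in all.

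As a share of the members' UMIs, mt-Nd1 made up 33.4%, 30.4% and 33.7% in aged mice 2, 4 and 6, against 33.1%, 36.7% and 29.6% in young mice 1, 3 and 5. mt-Cytb made up 38.1%, 31.7% and 35.2% in aged mice, against 38.3%, 31.3% and 36.9% in young mice. Mouse 3 had the most mt-Nd1 and the least mt-Cytb, and the ages were mixed. Of the 10 shares none passed an exact permutation test between ages, the smallest unadjusted p being 0.2 for mt-Atp8 (0.535% ± 0.157 in aged and 0.344% ± 0.123 in young mice, SD, n = 3 each) and the adjusted p of each 1.0. With 3 mice per age this test cannot go below 0.1.

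The number of cells kept close to the limit of 5% differed between mice, and the cells it removed are not in the data used here. The median cell had a mitochondrial share, taken over all 28 genes, of 0.827%, 0.703% and 2.00% in aged mice 2, 4 and 6, against 0.771%, 0.858% and 0.928% in young mice 1, 3 and 5. Cells above 4% numbered 76, 7 and 83 in aged mice 2, 4 and 6, against 24, 3 and 61 in young mice 1, 3 and 5, which is 12.2% of the cells of mouse 6 and 0.196% of those of mouse 3. The number of cells did not drop towards the limit in the mice with many such cells, with 42 cells from 4% to 4.5% and 41 from 4.5% to 5% in mouse 6, 38 and 38 in mouse 2, and 29 and 32 in mouse 5. Shallow cells had the higher shares, with a Spearman correlation between a cell's share and its UMIs of -0.05 to -0.61 (681 to 1919 cells of 1 library each, the share being computed from the same UMIs). With cells above 3% left out, which leaves 7846 cells, the share was 0.834%, 0.707% and 1.201% in aged mice 2, 4 and 6, against 0.814%, 0.866% and 0.943% in young mice 1, 3 and 5, and mt-Nd1 (-0.03), mt-Nd3 (-0.09) and mt-Nd4 (-0.02) turned to small negative log2 fold changes.

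**Figure D2:**
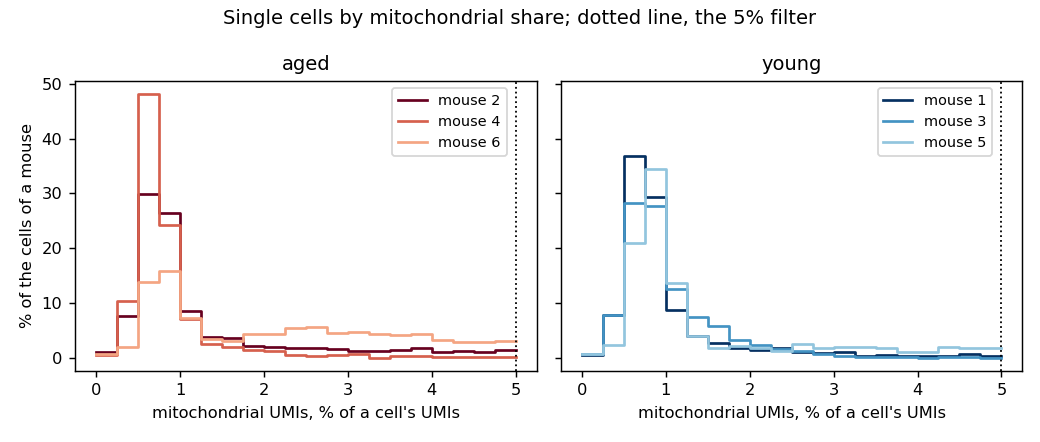
Share of the cells of each mouse (vertical axis, %) by the mitochondrial share of a cell's UMIs over all 28 mitochondrially encoded genes (horizontal axis, %), for the aged mice (left) and the young mice (right), with the 5% limit as a dotted line. Most cells lie below 2%, whereas aged mouse 6 has 49.5% of its cells above 2% and is still populated up to the limit, as are aged mouse 2 and young mouse 5 to a lesser extent.

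The second question was how the members differ between the lineages of the LK fraction. Cells were grouped without the mitochondrially encoded genes and their copies, so the members did not help to make the classes. The grouping gave 19 clusters, of which 16 took the name of 1 of 13 classes by their markers and 3, numbered 2, 6 and 13, stayed unnamed. Each class is set against the LMPP/MPP-like cells (lymphoid-primed and other multipotent progenitors, marked by Flt3, Dntt and Cd34) of the same mice.

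Averaged over the 6 mice, the members made up 1.22% ± 0.359 of the UMIs of erythroid-like cells (SD), the highest among the named classes that all mice had. Neutrophil-like cells followed with 1.11% ± 0.604, GMP/monocyte progenitor-like cells with 1.03% ± 0.452, cycling MPP-like cells with 1.03% ± 0.380 and PreGM-like cells with 1.02% ± 0.441. LMPP/MPP-like cells had 0.925% ± 0.253 and HSC-like cells 0.906% ± 0.1703, megakaryocyte-like cells 0.790% ± 0.112 and mast cell-like cells 0.786% ± 0.179. The spread between mice was wide beside these steps, and none of the named neighbours in this order differed in the same direction in all 6 mice. The unnamed cluster 6 (2.68% ± 0.893) and cluster 13 (0.560% ± 0.0525) lay outside this range, ranking first and last in every mouse, and cluster 2 (0.952% ± 0.277) lay inside it. Of the classes found in fewer mice, eosinophil-like cells had 0.801% ± 0.135 (n = 4), B-cell-like cells 0.580% ± 0.158 (n = 3), macrophage/dendritic cell-like cells 0.775% ± 0.218 (n = 2) and T/NK cell-like cells 2.58% in the 1 mouse with at least 10 of them.

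**Figure D3:**
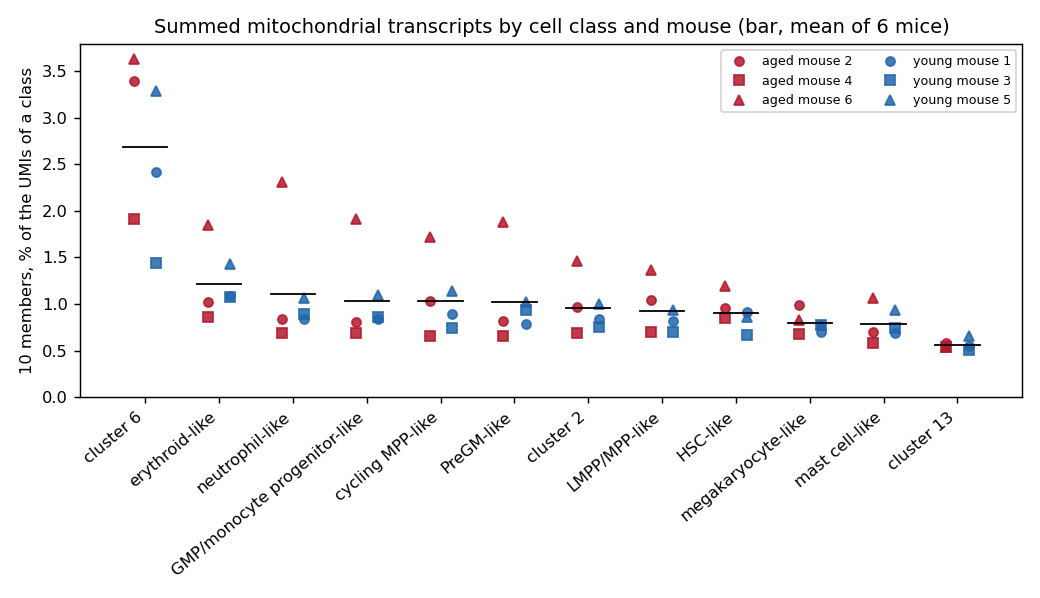
Share of the UMIs of a class held by the 10 members (%), one point per mouse, with aged mice in red on the left and young mice in blue on the right of each class and a black line at the mean of 6 mice. Cluster 6 is the highest and cluster 13 the lowest class in each mouse, and aged mouse 6 stands above the other mice in the neutrophil-like, GMP/monocyte progenitor-like and PreGM-like classes.

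Set against LMPP/MPP-like cells within a mouse, erythroid-like cells had a share of 1.02%, 0.860% and 1.85% in aged mice 2, 4 and 6 and of 1.08%, 1.08% and 1.43% in young mice 1, 3 and 5, against 1.04%, 0.695% and 1.36% in LMPP/MPP-like cells of the aged mice and 0.815%, 0.701% and 0.939% in those of the young mice. The erythroid-like share was the higher in 5 of 6 mice, the exception being mouse 2. The mean log2 ratio was 0.39 ± 0.24 (SD, n = 6, p = 0.0625, exact permutation test that flips the sign of each mouse, adjusted p = 0.25). For cluster 6 the log2 ratio was 1.5003 ± 0.27, higher in 6 of 6 mice, and for cluster 13 it was -0.69 ± 0.36, lower in 6 of 6 mice. For each of them p = 0.0312, the smallest that 6 mice allow in this exact test, and the adjusted p over 12 classes was 0.188. HSC-like cells had a log2 ratio of -0.01 ± 0.19 and were higher in 2 of 6 mice. Mast cell-like cells (-0.22 ± 0.24) and megakaryocyte-like cells (-0.20 ± 0.30) were lower in 5 of 6 mice.

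Aged mouse 6 set much of the spread between mice, and not in all lineages to the same degree. Its share was 2.31% in neutrophil-like, 1.91% in GMP/monocyte progenitor-like and 1.88% in PreGM-like cells, where the other 5 mice lay between 0.660% and 1.10%. In megakaryocyte-like cells it was 0.828%, inside the 0.674% to 0.990% of the other mice, and in cluster 13 it was 0.534%, beside 0.506% to 0.656%. Within the erythroid-like class the haemoglobin-rich cluster 9 reached 2.62% in mouse 6 and 2.32% in mouse 5, against 0.811% to 1.17% in the other 4 mice. The cells of mouse 6 had a median of 4261 UMIs and those of mouse 3 of 4172 UMIs, with overall shares of 1.63% and 0.882%. The correlation of share with depth among cells was strongest in mouse 6 (-0.61, against -0.26 in mouse 3), and the part of depth in these values was not tested.

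The members were then tested gene by gene in the fit across all genes. The SE given with a fold change comes from that fit and is not the spread between mice. In erythroid-like cells, where 63.1% of 8202 genes were called, 6 of 10 members were higher and 1 was lower than in LMPP/MPP-like cells (edgeR with the mouse as a block, adjusted p under 0.05). mt-Nd2 and mt-Nd1, both of complex I, rose the most, by 0.70 ± 0.06 (SE, adjusted p = 1.21e-11) and 0.66 ± 0.05 (adjusted p = 4.6e-13) on the log2 scale. mt-Nd3 (0.55 ± 0.10), mt-Atp8 (0.43 ± 0.15), mt-Nd4 (0.35 ± 0.06) and mt-Cytb (0.21 ± 0.06) rose as well, whereas mt-Co1 fell by 0.35 (SE 0.08, adjusted p = 0.000209). The call of mt-Atp8 was lost without mouse 1 (0.39), 2 (0.39) or 4 (0.18) and with DESeq2 (0.34), that of mt-Cytb without mouse 3 (0.13), and that of mt-Co1 when the clusters were made without integration between mice (-0.17). mt-Nd2 stood at 641, 1068 and 1843 CPM in erythroid-like cells of aged mice 2, 4 and 6 and at 689, 1113 and 1421 CPM in those of young mice 1, 3 and 5, against 503, 700 and 1213 CPM in LMPP/MPP-like cells of the aged mice and 378, 667 and 715 CPM in those of the young mice. It was thus higher in the erythroid-like cells of each of the 6 mice.

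In the myeloid line the members moved unequally. In PreGM-like cells, led by the granule genes Elane, Mpo and Ctsg (43% of 7703 genes called), mt-Nd1 rose by 0.34 ± 0.06 (adjusted p = 1.96e-06) and mt-Co1 fell by 0.53 (SE 0.08, adjusted p = 2.96e-07), and the other 8 members did not pass. GMP/monocyte progenitor-like cells (42.8% of 7961 genes called) showed the same pair, mt-Nd1 at 0.40 ± 0.06 and mt-Co1 at -0.40 ± 0.07. In neutrophil-like cells (44.7% of 7477 genes called) mt-Nd1 rose by 0.41 ± 0.07, mt-Nd4 by 0.22 ± 0.08 and mt-Cytb by 0.20 ± 0.07, while mt-Co1 fell by 0.39 (SE 0.09) and mt-Nd2 fell by 0.24 (SE 0.08). The calls of mt-Nd4, mt-Cytb and mt-Nd2 in neutrophil-like cells were each lost with DESeq2. They were also lost without mouse 5 (0.21) or 6 (0.13) for mt-Nd4, without mouse 3 (0.18) or 6 (0.13) for mt-Cytb and without mouse 2 (-0.22) or 4 (-0.14) for mt-Nd2. Dividing cells gave little, with mt-Nd1 alone higher in cycling MPP-like cells (0.21 ± 0.04, 19.6% of 6700 genes called), and mt-Nd1 higher and mt-Co1 and mt-Atp6 lower in the S-phase cluster 2 (33.6% of 7662 genes called), the call of mt-Atp6 (-0.19) being lost without mouse 2 (-0.12), 3 (-0.18) or 4 (-0.18) and with DESeq2 (-0.17). In eosinophil-like cells, which 4 mice had, mt-Co1 fell by 0.56 (SE 0.15, adjusted p = 0.00189) and the other 8 members tested did not pass (18.7% of 5618 genes called), and the call of mt-Co1 was lost without mouse 4 (-0.37) and with DESeq2 (-0.57).

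In megakaryocyte-like and mast cell-like cells no member was called higher. The markers behind the name mast cell-like do not tell mast cells from basophils. Its clusters 5 and 10 (505 and 339 of 996 cells) were led by Prss34 and Mcpt8, known from basophils, beside Fcer1a and Cpa3. Its cluster 14 (152 cells) was led by Gzmb and Cma1, known from mast cells. In megakaryocyte-like cells (34.3% of 6829 genes called) 5 of 10 members were lower than in LMPP/MPP-like cells, mt-Co1 falling by 0.66 (SE 0.09, adjusted p = 8.32e-09), mt-Nd4 by 0.34 (SE 0.06), mt-Cytb and mt-Atp6 each by 0.30 (SE 0.06 and 0.09) and mt-Nd2 by 0.24 (SE 0.06). The calls of mt-Atp6 (-0.28) and mt-Nd2 (-0.22) in these cells were lost with DESeq2. In mast cell-like cells (33.7% of 7590 genes called) 6 were lower, by 0.34 for mt-Nd3, 0.32 for mt-Atp6, 0.27 for mt-Nd2, 0.24 for mt-Cytb, 0.23 for mt-Co1 and 0.17 for mt-Nd4. Of these 6 the call of mt-Nd2 alone held without each mouse in turn. The others were lost without mouse 2, at -0.20 for mt-Nd3, -0.23 for mt-Atp6, -0.13 for mt-Cytb, -0.11 for mt-Co1 and -0.07 for mt-Nd4. Those of mt-Nd3 (-0.24 and -0.33), mt-Co1 (-0.22 and -0.19) and mt-Nd4 (-0.14 and -0.14) were also lost without mouse 4 or 6, that of mt-Co1 without mouse 1 (-0.23) and that of mt-Nd3 without mouse 5 (-0.33). With DESeq2, and with clusters made without integration between mice, the calls of mt-Nd3, mt-Atp6, mt-Co1 and mt-Nd4 in mast cell-like cells were lost as well. mt-Co1 was lower than in LMPP/MPP-like cells in 9 of 12 classes and higher in 1, cluster 6, while mt-Nd1 was higher in 7 of 12 and lower in 2. mt-Co2 was called in none of the 11 classes in which it was tested.

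**Figure D4:**
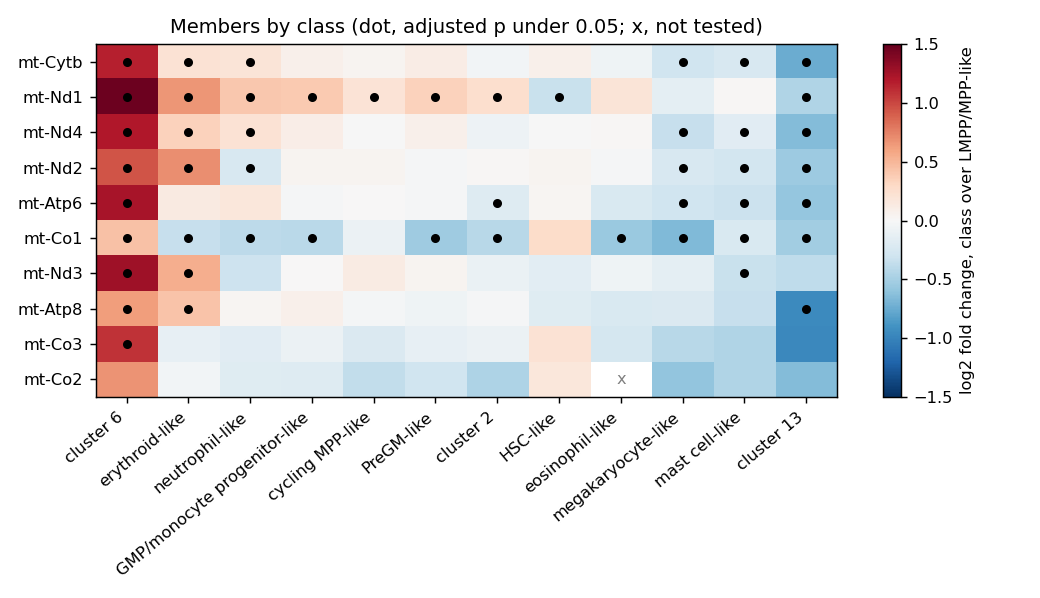
Log2 fold change of each member (rows, by mean level) in each class over the LMPP/MPP-like cells of the same mice (columns, by mean mitochondrial share), red for higher and blue for lower, with a dot where the adjusted p is under 0.05 and a cross where the gene was not tested. Cluster 6 is red throughout and cluster 13 blue throughout, mt-Nd1 is red in most classes but blue with a dot in HSC-like cells and cluster 13 and pale blue without one in megakaryocyte-like cells, and mt-Co1 is blue in 9 classes with a dot.

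HSC-like cells differed from LMPP/MPP-like cells in 1 member, mt-Nd1 (20.5% of 5896 genes called). It stood at 2098, 1843 and 3362 CPM in HSC-like cells of aged mice 2, 4 and 6 and at 1885, 1595 and 2092 CPM in those of young mice 1, 3 and 5, against 3045, 1851 and 3918 CPM in LMPP/MPP-like cells of the aged mice and 2447, 2202 and 2416 CPM in those of the young mice. It was lower in HSC-like cells in 6 of 6 mice, though by little in mouse 4, and fell by 0.34 on the log2 scale (SE 0.08, adjusted p = 0.000505). The call was kept without each mouse in turn and was lost with no replicate block (-0.27). It was also lost when the clusters were made without integration between mice (-0.29), where 4 mice could be compared. mt-Cytb (0.07 ± 0.08), mt-Nd4 (-0.01 ± 0.08 SE) and mt-Nd2 (0.04 ± 0.10) did not pass.

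Because mt-Nd1 and mt-Cytb have nearly the same level in all LK cells, their ratio shows this shift without the scaling by library size. In HSC-like cells there were 0.473, 0.570 and 0.740 mt-Nd1 UMIs per mt-Cytb UMI in aged mice 2, 4 and 6 and 0.453, 0.658 and 0.617 in young mice 1, 3 and 5. In LMPP/MPP-like cells there were 0.717, 0.807 and 0.772 in the aged mice and 0.754, 0.949 and 0.652 in the young mice. HSC-like cells were the lowest of 12 classes in 6 of 6 mice and LMPP/MPP-like cells the second lowest in 5 of 6. The mean ratio was 0.585 ± 0.110 in HSC-like and 0.775 ± 0.1003 in LMPP/MPP-like cells, and the other classes ran from 0.861 ± 0.139 in megakaryocyte-like cells to 1.06 ± 0.117 in erythroid-like cells, which were the highest in 5 of 6 mice (SD, n = 6). Of the members' UMIs, mt-Nd1 made up 5.18 ± 3.56 percentage points less in HSC-like than in LMPP/MPP-like cells of the same mouse (difference -5.18), and 2.51 to 5.73 points more in the other 10 classes with 6 mice, in each of the 6 mice.

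Depth differs between these classes as well, from a median of 3695 UMIs per HSC-like cell and 4679 per LMPP/MPP-like cell to 9024 per PreGM-like cell. Cluster 6 and cluster 13 had medians of 2476 and 3998 UMIs and ratios of 0.962 ± 0.160 and 0.960 ± 0.186. When the cells of 1 class and mouse were split at their median depth, mt-Nd1's part of the members' UMIs differed between the deeper and the shallower cells by -0.29 ± 1.21 percentage points in LMPP/MPP-like cells (deeper cells higher in 3 of 6 mice) and 0.04 ± 0.69 in PreGM-like cells, and by 2.09 ± 2.25 points in HSC-like cells, where the deeper cells were higher in 6 of 6 mice. The difference was -0.63 ± 1.53 points in GMP/monocyte progenitor-like cells (deeper cells higher in 3 of 6 mice). In erythroid-like cells it was -1.39 ± 2.47 points (deeper cells higher in 1 of 6 mice). The whole cDNA was amplified together, and the part of depth, messenger ends, priming inside a messenger and cell size in these ratios was not tested.

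**Figure D5:**
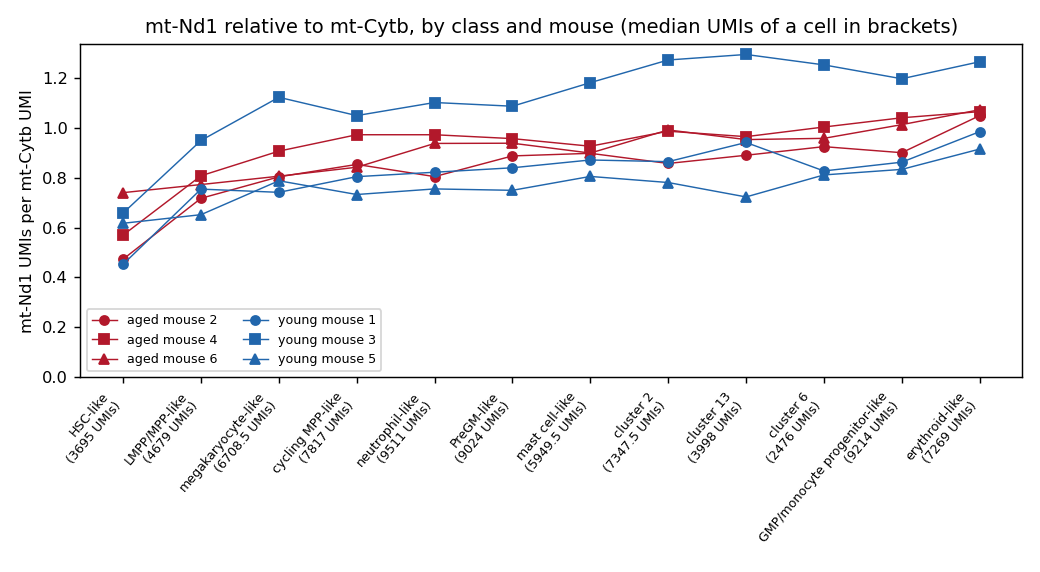
UMIs of mt-Nd1 per UMI of mt-Cytb in the 12 classes that all 6 mice had, ordered by their mean, with 1 line per mouse (aged in red, young in blue) and the median UMIs per cell in brackets. All 6 lines start at their lowest point in HSC-like cells (mean 0.585) and 5 of them end at their highest in erythroid-like cells (mean 1.06), and young mouse 3 runs above the others in most classes.

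Cluster 6 held the cells richest in mitochondrial transcripts. Its 465 cells had Mpo and Ctsg, made by granulocyte progenitors, among their leading genes but too few markers for a name. In it 9 of 10 members were higher than in LMPP/MPP-like cells (34.5% of 5700 genes called), by 0.44 (mt-Co1) to 1.47 (mt-Nd1) on the log2 scale, and mt-Co2 (0.67 ± 0.28) did not pass. mt-Nd1 reached 11799, 6386 and 12603 CPM in cluster 6 of aged mice 2, 4 and 6 and 7896, 5486 and 10057 CPM in that of young mice 1, 3 and 5, above each LMPP/MPP-like value. The call of mt-Co1 was lost without mouse 5 (0.35). That of mt-Atp8 (0.63) was lost without mouse 2 (0.45) or 4 (0.45) and with DESeq2 (0.57). The cells were shallow, at a median of 2476 UMIs, and 27.5% of them lay above 4% mitochondrial share, next to the limit. Ribosomal protein genes took 16.6% to 37.3% of their UMIs, against 35.3% to 43.6% in LMPP/MPP-like cells, and Malat1, a nuclear RNA, took 1.51% to 2.57%, against 0.972% to 1.89%. The cluster made up 9.24%, 2.87% and 8.22% of the cells of aged mice 2, 4 and 6, against 4.58%, 1.83% and 9.83% of those of young mice 1, 3 and 5. Without it the members' share was 0.867%, 0.709% and 1.55% in aged mice 2, 4 and 6, against 0.837%, 0.877% and 1.04% in young mice 1, 3 and 5. The part of cell damage in its values was not tested.

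Cluster 13 held the cells poorest in mitochondrial transcripts, 210 cells with Phlda1, Junb and Egr1 among their leading genes, beside Gm15915, which is on the erythroid list, and Mfsd2b. Of the 23 erythroid markers counted, 11 were higher than in the other cells, but only 1 was among its 15 leading genes, so it stayed unnamed. In it 7 of 10 members were lower than in LMPP/MPP-like cells and none was higher (22.7% of 4890 genes called), the call of mt-Atp8 (-0.96) being lost without mouse 1 (-0.84), 2 (-0.91), 5 (-0.76) or 6 (-0.93) and with DESeq2 (-1.17). mt-Cytb fell by 0.75 (SE 0.06, adjusted p = 7.36e-25), with 2133, 1643 and 1779 CPM in cluster 13 of aged mice 2, 4 and 6 and 1937, 1473 and 2540 CPM in that of young mice 1, 3 and 5, against 4246, 2293 and 5073 CPM in LMPP/MPP-like cells of the aged mice and 3245, 2321 and 3708 CPM in those of the young mice. Each mouse showed the fall, and it was steepest in mouse 6. Of the list of immediate early and heat shock genes, which respond to handling and stress, 11 of 15 tested were higher in cluster 13 and none was lower (median log2 fold change 1.10, against 0.00 for all genes), and the part of that response in the members' levels was not tested.

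The subunits that the nucleus supplies to the same complexes followed the lineages in part only. In erythroid-like cells 29 of 36 complex I subunits, 8 of 9 complex III subunits, 10 of 11 complex IV subunits and 15 of 17 ATP synthase subunits were higher than in LMPP/MPP-like cells, with median log2 fold changes of 0.55, 0.74, 0.62 and 0.52, against 0.00 for all genes, of which 2571 of 8202 were higher. Atpif1, the inhibitor of the ATP synthase (1.40 ± 0.05 SE), and Atp5g1, which encodes its membrane ring (1.46 ± 0.06 SE), rose the most among those named. mt-Atp6, which lies beside that ring, did not pass (0.14 ± 0.09), and mt-Co1 fell where Cox4i1 of the same complex rose (0.44 ± 0.05 SE). Ndufa4, on the same complex IV list, was called lower, as mt-Co1 was (-0.30 ± 0.05 SE). In PreGM-like cells 28 of 36, 7 of 9, 11 of 11 and 16 of 17 nuclear subunits rose, and in GMP/monocyte progenitor-like cells 31, 7, 11 and 16 (beside 1572 of 7703 and 1629 of 7961 over all genes), where mt-Nd1 was the only member called higher. A complex III subunit was called lower in each of these 2 classes.

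In HSC-like cells no nuclear subunit on the 4 lists was higher, and 4 of 36, 2 of 9, 7 of 11 and 9 of 17 were lower than in LMPP/MPP-like cells, beside 599 of 5896 lower over all genes. The complex I share lay close to that over all genes. Ndufa4, a subunit that joins complex IV, fell by 0.84 (SE 0.09), and Atp5b, the catalytic subunit of the ATP synthase, by 0.46 (SE 0.10), beside the members' median of 0.04. Cluster 6 showed opposite signs, with 15 of 36, 5 of 9, 5 of 11 and 10 of 17 nuclear subunits lower, and 1, 1, 0 and 1 higher (beside 1052 lower and 916 higher of 5700 genes), where 9 of 10 members were higher. Of the 28 listed genes that transcribe mitochondrial DNA or keep its RNA, 11 of 25 tested were higher in erythroid-like cells and none was lower, a smaller share called than the 63.1% of all genes. Among the 11 were Slirp, which stabilizes the messengers (0.63 ± 0.08 SE), and Ssbp1, which binds single-stranded mitochondrial DNA (0.37 ± 0.09 SE). In HSC-like cells 3 of 13 were called, near the 20.5% of all genes, with 1 higher, Hsd17b10, a subunit of the enzyme that frees the transfer RNAs (0.65 ± 0.13 SE), and 2 were lower. Between ages no gene on any of these lists was called in all LK cells, and the 4 lists of nuclear subunits had median log2 fold changes of -0.10 to -0.17, aged over young, beside 0.15 for the members.

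Likeness across lineages was measured over 74 sums of 1 class in 1 mouse, as the Pearson correlation of log2 CPM after centring on the mean of each mouse, for 2545 genes with at least 50 CPM. Among the genes outside the mitochondrial genome most like the summed members were Sdha, the flavoprotein of complex II (r = 0.774), Stt3a, of the oligosaccharyltransferase (0.766), Canx, a chaperone of the endoplasmic reticulum (0.747), and Bsg, a membrane glycoprotein (0.739). The sums share libraries, and cluster 6 carried part of the likeness, as r was 0.647 for Sdha, 0.543 for Stt3a, 0.586 for Canx and 0.614 for Bsg over the 68 sums without it. The nuclear subunits had median correlations of 0.0446 to 0.108 per list, beside 0.140 for all 2545 genes. Among the members, mt-Nd4 (0.991) and mt-Cytb (0.973) went most closely with the sum of the others, and mt-Co1 (0.706), mt-Co3 (0.701), mt-Co2 (0.572) and mt-Atp8 (0.551) least, mt-Co1 having 0.388 once cluster 6 was left out.

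Age was then compared within each class. None of the members was called between aged and young mice in any of 13 classes, in which 6 to 10 members could be tested each. The background was 0% called in 12 of the classes and 1 of 4497 genes (0.0222%) in megakaryocyte-like cells. In LMPP/MPP-like cells all 10 members had a positive log2 fold change (median 0.30), and in cluster 6 and cluster 2 9 of 9 and 9 of 10 had, but the classes share their mice. The counts were lower elsewhere, with 1 of 7 members positive in eosinophil-like cells (median -0.48), 3 of 10 in mast cell-like cells (median -0.12) and 2 of 6 in cluster 13 (median -0.09). As a log2 ratio to LMPP/MPP-like cells of the same mouse, the share in mast cell-like cells averaged -0.39 in aged and -0.06 in young mice without overlap (difference -0.336, p = 0.1, the smallest that the exact permutation test of 3 against 3 mice can give). The mast cell-like share itself overlapped between ages, at 0.784% ± 0.252 in aged and 0.789% ± 0.128 in young mice. The LMPP/MPP-like share, by which it was divided, averaged 1.03% in aged and 0.818% in young mice. The ratios of the other classes were compared in the same way, and a ratio of 3 against 3 mice separates at random with a probability of 0.1. In HSC-like cells the share was 0.952%, 0.853% and 1.19% in aged mice 2, 4 and 6, against 0.914%, 0.665% and 0.862% in young mice 1, 3 and 5 (0.998% ± 0.172 and 0.814% ± 0.131, SD, n = 3 each, p = 0.3, exact permutation test). The HSC-like groups came from 174, 66 and 26 cells in aged mice 4, 2 and 6, against 28, 16 and 12 cells in young mice 3, 1 and 5, so the young values rest on few cells. In erythroid-like cells the mean share was 1.24% ± 0.529 in aged and 1.198% ± 0.201 in young mice (p = 1.0, exact permutation test).

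The same cDNA had also been read with long reads, without a filter on cells. A mouse had 2 long-read runs, with 274522 to 358453 reads counted to genes in the first and 962174 to 1833762 in the second, and 47.4% to 52.4% of the reads of a run were not counted to a gene. In long reads the members made up 0.652%, 0.859% and 0.777% of counted reads in aged mice 2, 4 and 6, against 0.874%, 0.819% and 0.723% in young mice 1, 3 and 5 (0.762% ± 0.104 in aged and 0.805% ± 0.0761 in young mice, SD, n = 3 each, p = 0.6, exact permutation test). Of the 9 members that could be tested none was called, and of 9244 genes 0 (0%) passed in edgeR's quasi-likelihood test (154 at an unadjusted p under 0.05, 60 called without the filter on low counts). The members' median log2 fold change was -0.09, aged over young.

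The second runs of 4 mice need care. Across 2457 genes, each first run was closest to the short-read library of its own mouse, and so were the second runs of mice 1 and 2, but the second run labelled mouse 3 was closest to mouse 6, that labelled 6 to mouse 3, that labelled 4 to mouse 5 and that labelled 5 to mouse 4, in short reads and in first runs alike. The labels were kept. These 4 mice are 2 of each age, and each pair crosses the ages, so values between ages are also given from the first runs alone. For mice 1 and 2 the label of the first run states young or aged but no mouse number. Each of these runs was given to the only mouse of that age still lacking a first run. Their mouse is thus inferred, whereas their age is stated. In the first runs the members' share was 0.869%, 0.715% and 0.995% in aged mice 2, 4 and 6, against 1.23%, 0.939% and 1.09% in young mice 1, 3 and 5 (0.860% ± 0.140 and 1.08% ± 0.143, SD, n = 3 each, p = 0.2, exact permutation test).

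The long reads gave the members other proportions. mt-Cytb made up 54.3% ± 4.56 of the members' long reads, against 35.3% ± 3.11 of their short-read UMIs (SD, n = 6 mice), and was higher in long reads in 6 of 6 mice. mt-Co1 (5.83% of long reads, against 2.80% of short reads), mt-Co3 (1.52%, against 0.286%) and mt-Nd2 (8.26%, against 7.44%) were higher in long reads in 6 of 6 mice as well. mt-Nd1 (24.2%, against 32.8%), mt-Nd4 (5.30%, against 16.8%), mt-Nd3 (0.122%, against 1.08%), mt-Atp6 (0.293%, against 2.90%) and mt-Atp8 (0.00534%, against 0.439%) were lower in 6 of 6. mt-Atp8 had 4 long reads in all, and mt-Co2 had a like part, with 0.210% of long reads, against 0.224% of short reads, and was higher in long reads in 3 of 6 mice. These values sum both runs of a mouse, including the second runs labelled mice 3 to 6. In the first runs alone mt-Atp6 had 1 read of 279079 in mouse 1 and 13 of 324359 in mouse 5, too few to give its spread among mice.

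Among the other mitochondrially encoded genes, mt-Rnr2, the large ribosomal RNA, reached 11745 CPM in long reads and 289 CPM in short reads (means of 6 mice). Of the 3 protein-coding genes that are not among the 10, mt-Nd5 averaged 155 ± 40.4 CPM in short reads, mt-Nd6, which is encoded on the other strand, 6.09 ± 3.04 CPM and mt-Nd4l 1.59 ± 0.683 CPM. None of the 3 was called between ages. In cluster 6 mt-Nd5 rose by 0.94 ± 0.14 (SE), mt-Rnr1 by 1.18 ± 0.20 and mt-Rnr2 by 0.96 ± 0.14 on the log2 scale, over LMPP/MPP-like cells, the same direction as 9 of the 10 members.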

How the data were processed

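The authors made the short-read counts with Cell Ranger 3.0.2 (mm10), as UMI counts per gene and cell, and deposited them after removing cells with fewer than 1000 genes or over 5% mitochondrial counts in Seurat 3. The deposited long-read counts are reads per gene (minimap2, HTSeq, GRCm38.p6), from 12 runs of 6 mice. Depth per mouse was 3628043 to 17585424 UMIs. Each mouse is 1 library, so mouse and library cannot be told apart. Cells were clustered in Seurat 5.3.0 (R 4.3.3; anchors between mice, 2000 features, 20 dimensions, resolution 0.8, seed 42) without mitochondrial, ribosomal and immunoglobulin genes, doublets were not called, and clusters were named where at least 3 markers stood among the leading 15 genes. Counts were summed per mouse and class (at least 10 cells) and tested in edgeR 4.0.16 (filterByExpr, TMM, quasi-likelihood, Benjamini-Hochberg, 0.05). The SE of a log2 fold change is its size over the square root of the F of that test, not an SD between mice. Classes were compared with the mouse as a block, since both classes came from the same animal. DESeq2 1.42.0, other filters, resolutions and cell limits and leaving out each mouse were alternatives. Shares were compared by two-sided exact permutation over mice, written in Python 3.11.15 with NumPy 2.4.6. Named genes are the 10 members, the other mitochondrially encoded genes and the nuclear copies, the 3 of each other list with the highest mean CPM, and the 5 genes most like the members, of which 1 is not reported here. The members and lists were chosen with earlier results of these data known. The fits were tested on simulated data.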

Additional observations from a re-analysis of the deposited data

Results flagged for a closer look

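In eosinophil-like cells the members' share, as a log2 ratio to LMPP/MPP-like cells of the same mouse, was negative in both aged mice (2 and 4, mean -0.30) and positive in both young mice (1 and 3, mean 0.27), the other mice having too few of these cells. The difference between ages was -0.564, with p = 0.333, the smallest an exact permutation test of 2 against 2 mice can give. The share itself was 0.761% and 0.627% in aged mice, against 0.913% and 0.904% in young mice, from 15 and 18 cells, against 28 and 13 cells. Of 12 classes checked for a mouse far from the others in this log2 ratio, 0 had one. The shares themselves were not checked in this way. In neutrophil-like cells, for one, the share of mouse 6 was 2.31%, against 0.684% to 1.06% in the other mice.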

How the results depend on the processing

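Of 12302 genes, 0 were called between ages, 8 with DESeq2, 6 with a term for mice 1 and 2, and 0 to 1 with a mouse left out. In long reads 60 were called without the filter on low counts and 3 with the term. Within classes the term gave 1 member call, mt-Atp6 in eosinophil-like cells, and leaving out a mouse 0 to 1. Between classes 49 member calls were made with the mouse as a block and 17 with no replicate block, the cause of which was not tested. The other settings stayed within 1.5 times, over the classes they share. The age differences of the members mostly changed sign with a mouse. With a mouse left out, the log2 fold change in all LK cells was -0.28 to 0.36 for mt-Nd1, -0.26 to 0.46 for mt-Nd2, -0.26 to 0.55 for mt-Nd3, -0.23 to 0.31 for mt-Nd4, -0.36 to 0.0801 for mt-Co1, -0.11 to 1.31 for mt-Co2, -0.14 to 1.30 for mt-Co3, -0.25 to 0.37 for mt-Cytb and -0.0754 to 1.40 for mt-Atp6. With cells up to 3% it was -0.0289 for mt-Nd1, -0.0904 for mt-Nd3 and -0.0213 for mt-Nd4, and with progenitor classes alone -0.0393 for mt-Nd3. In long reads the range was -0.31 to 0.0025 for mt-Nd1, -0.24 to 0.30 for mt-Nd2, -0.43 to 0.59 for mt-Nd3, -0.31 to 0.0495 for mt-Nd4, -0.32 to 0.14 for mt-Co1, -0.36 to 0.30 for mt-Co2, -0.20 to 0.0364 for mt-Cytb and -0.13 to 0.35 for mt-Atp6. mt-Nd2 was -0.0041 without the filter, -0.0608 with the term and -0.56 in first runs, mt-Co1 0.31 in first runs and mt-Co2 0.21 in second runs, and the runs alone, like leaving out cluster 6, were chosen after seeing the data. The members' share differed between ages by -0.125 to 0.330 percentage points with a mouse left out. The log2 ratio of HSC-like to LMPP/MPP-like share was 0.0053 with cells up to 3%, 0.0443 at resolution 1.2, 0.1314 for clusters without integration and -0.071 to 0.0275 with a mouse left out, and that of eosinophil-like cells 0.0133 at resolution 1.2 and -0.14 to 0.13. As parts of the members' UMIs, the age differences ranged from -0.308 to 2.09 points for mt-Atp6, -0.0105 to 0.145 for mt-Co2, -0.017 to 0.175 for mt-Co3, -2.65 to 1.09 for mt-Cytb, -2.35 to 1.18 for mt-Nd1, -0.646 to 1.79 for mt-Nd2, -0.402 to 0.203 for mt-Nd3 and -0.677 to 0.190 for mt-Nd4. The 5% limit on cells and 3 mice per age bound what can be detected.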
